A study of Mus musculus with 4 samples.

Results

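Secretory proteins enter the endoplasmic reticulum (ER) through a channel, are trimmed, glycosylated and folded there, and leave in coated vesicles. Chosen by name for a known role in that route, 51 genes are described here in the mouse astrocyte line C8-D1A. They were chosen with earlier results of these data known. All 51 were among the 24169 genes of the deposited table. The rule for members also asked for at least 1 FPKM in at least 2 of the 4 libraries. FPKM is fragments per kilobase of gene, scaled to the mapped reads of the library. The same filter left 12403 genes for testing, so that all 51 passed it was fixed by the rule. Their roles put them into 7 groups: translocon (10 genes), signal peptidase (5), oligosaccharyltransferase (7), folding enzymes (8), glycan trimming and lectin cycle (5), COPII coat (10), and cargo and retrieval receptors (6).

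The study set untreated cells (2 libraries, control 1 and control 2) against cells given MBP at 1 mM for 24 h (2 libraries, MBP 1 and MBP 2). No vehicle is named for the untreated cells, and no genetic change for either group. The series title speaks of maternal DBP. DBP is a common short form of dibutyl phthalate, which the body cleaves to monobutyl phthalate, but the labels do not spell out MBP. Only 1 cell line was used. The labels do not call the libraries of a group separate cultures, so p-values measure the spread between these libraries, which may be technical.

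Ribosomes bring most secretory and membrane proteins to the Sec61 channel, where signal peptidase removes the signal peptide and oligosaccharyltransferase attaches a preassembled sugar chain to asparagines. Protein disulfide isomerases form and shuffle disulfide bonds, prolyl isomerases turn peptide bonds, and glucosidases with calnexin hold glycoproteins until they are folded. COPII vesicles then carry cargo to the Golgi, and KDEL receptors bring escaped ER proteins back. When unfolded proteins collect in the ER, the factors ATF6 and XBP1 raise many of these genes.

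Depth, inferred from the FPKM values and rounded, was 23571000 to 25907000 reads per library. Of 10 astrocyte markers 3 passed the filter, with Glul at 12.6 to 13.6 FPKM over the 4 libraries, S100b at 4.75 to 5.69 and Sox9 at 2.22 to 2.50. The defining markers Gfap (0.119 to 0.282 FPKM), Aldh1l1 (0.0555 to 0.113), Slc1a2, Aqp4, Gja1 and Aldoc were under 1 FPKM in every library, and Slc1a3 was at 0 in 3 of 4. Most markers of the labelled cell type were therefore near 0. Sox10, a factor of the oligodendrocyte lineage and of neural crest cells, stood at 87.8 to 99.97 FPKM, higher in both untreated libraries. The summed FPKM of the astrocyte list was 21.1 to 22.4 untreated and 21.4 to 22.1 with MBP. For the oligodendrocyte lineage it was 119.0 to 123.4 untreated and 108.8 to 109.0 with MBP, with 5 of 8 genes past the filter, mostly Sox10, and Mag at or near 0. For neurons it was 36.4 to 39.3 untreated and 30.2 in both libraries with MBP, with 3 of 8 past it, mostly Tubb3, and Snap25 and Syt1 at or near 0. For microglia and macrophages it was 10.2 to 10.7 untreated and 8.95 to 10.2 with MBP, with 2 of 8 past it and Itgam and Ptprc at or near 0. For fibroblasts and pericytes it was 8.69 to 9.40 untreated and 8.10 to 8.51 with MBP, with 2 of 8 past it and Dcn at or near 0. The part of these shifts in the results was not tested. In such bulk samples, fewer cells of a type and less RNA per cell cannot be told apart.

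All 8 ER folding enzymes among the members had lower mean values with MBP (against 51.6% of all genes tested). For 7 of them the untreated and MBP values did not overlap (against 23.5% of all genes). The disulfide isomerases Pdia6, Pdia3 and P4hb stood at 0.760, 0.832 and 0.862 times the untreated mean. The other steps were more mixed. Oligosaccharyltransferase had 6 of 7 genes with a negative log2 fold change (MBP minus control), the receptors 5 of 6 and signal peptidase 4 of 5. The translocon and the COPII coat had 6 of 10 each, and the glycan cycle 3 of 5. Outside the 51 members, 6 of 14 further thiol oxidoreductases were negative and 8 positive. No gene passed the test (limma on log2(FPKM + 1), Benjamini-Hochberg adjusted p under 0.05): 0 of 51 members and 0 of 12403 genes (0%), with member adjusted p from 0.457 to 0.986. At an unadjusted p under 0.05, 5 members had lower values (9.80% of 51, against 5.87% of all genes tested) and 0 had higher values (against 3.81%). Those 5 were Pdia6, Pdia3, Sec61b, Rpn1 and Rpn2.

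With all 4 libraries, a larger share of the members than of all genes had lower values with MBP. Because the members were chosen with earlier results known, the shares are descriptions only. The members' median log2 fold change was -0.075, beside -0.0048 over all genes tested, and 38 of 51 were negative (74.5%). The groups did not overlap for 23 members with lower values (45.1%) and for 4 with higher values (7.84%, against 21.3%). These counts moved with control 2, which held the highest of the 4 values for 33 of 51 members (64.7%) but for 32.3% of all genes. Without control 2 the members' median was -0.0083 and 26 of 51 were negative, beside -0.0057 and 6443 of 12403 over all genes tested. Without control 1 the members' median was -0.15 and 42 were negative, beside -0.0065 and 6393 over all genes tested.

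**Figure D1:**
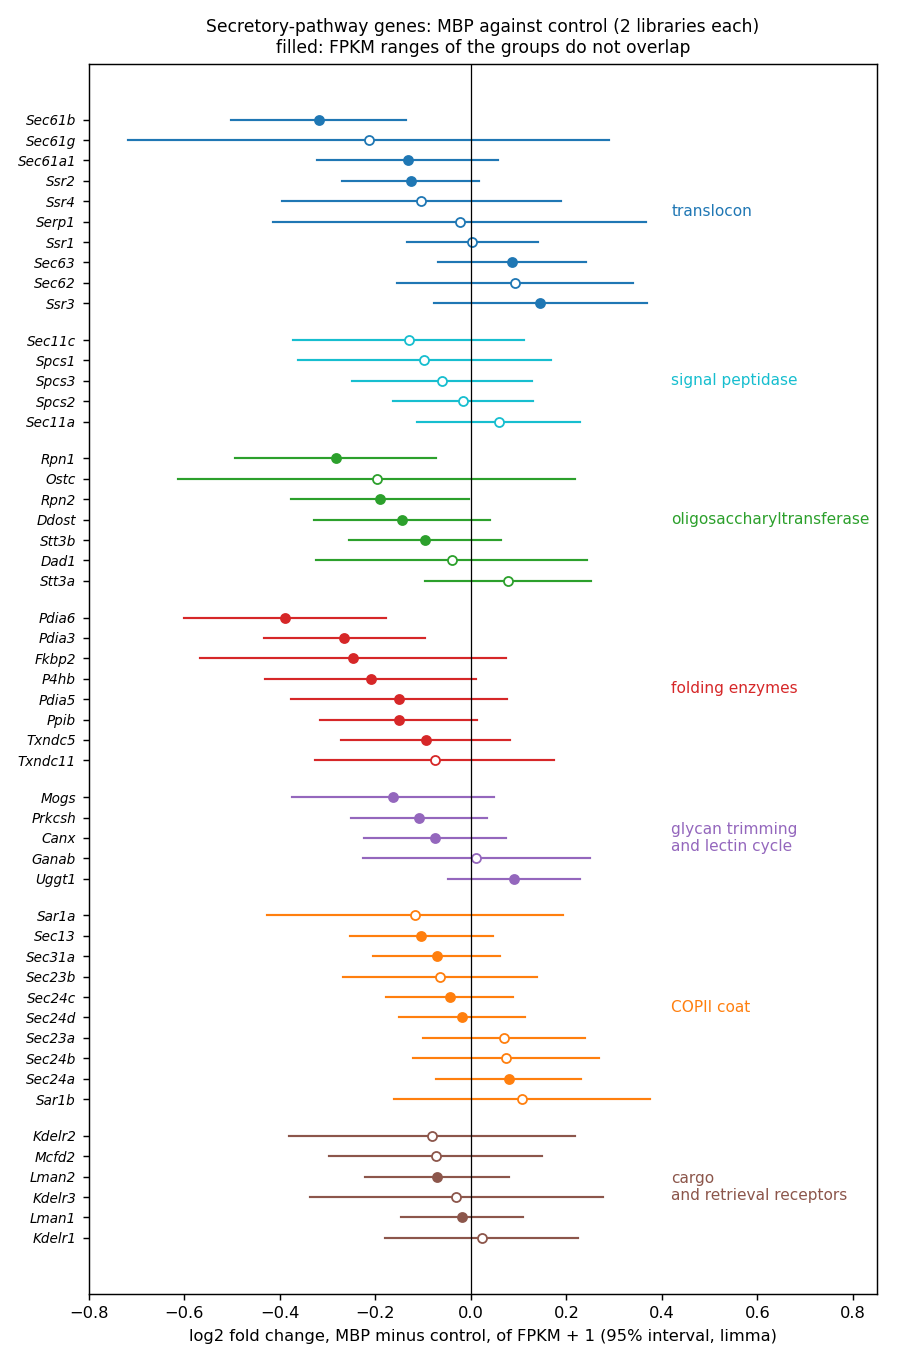
Log2 fold change of FPKM + 1, MBP minus control, for each of the 51 genes (points) with limma's 95% interval (lines), grouped and coloured by role; filled points mark genes whose 2 control and 2 MBP values do not overlap. All 8 folding enzymes lie left of 0, while the other groups straddle it, from Sec61b at -0.32 to Ssr3 at 0.15.

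The promoters of 3 members are shown because they carry sequences that ATF6 or XBP1 is known to read. The ER stress response element (ERSE) is CCAAT, a gap of 9 bases and CCACG, bound by NF-Y and ATF6. The core of the unfolded protein response element (UPRE) is TGACGTGG. Both were searched on both strands of the RefSeq promoter windows (GRCm38.p6), which run from 250 bases before to 50 bases after a gene's start. Capitals mark the match in each, and each is written 5′ to 3′ along the gene's strand. Pdia6 (chr12:17266339-17266638, plus strand) and Canx (chr11:50325624-50325923, minus strand) hold an ERSE whose first base lies 98 and 145 bases before the start. Txndc5 (chr13:38527865-38528164, minus strand) holds a UPRE core 138 bases before 1 of its annotated starts.
Pdia6: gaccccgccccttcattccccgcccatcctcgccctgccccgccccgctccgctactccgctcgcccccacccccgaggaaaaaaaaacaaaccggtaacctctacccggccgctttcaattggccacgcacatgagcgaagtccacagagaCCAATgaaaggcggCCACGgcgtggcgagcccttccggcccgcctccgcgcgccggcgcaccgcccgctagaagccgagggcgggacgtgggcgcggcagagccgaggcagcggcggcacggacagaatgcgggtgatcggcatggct
Canx: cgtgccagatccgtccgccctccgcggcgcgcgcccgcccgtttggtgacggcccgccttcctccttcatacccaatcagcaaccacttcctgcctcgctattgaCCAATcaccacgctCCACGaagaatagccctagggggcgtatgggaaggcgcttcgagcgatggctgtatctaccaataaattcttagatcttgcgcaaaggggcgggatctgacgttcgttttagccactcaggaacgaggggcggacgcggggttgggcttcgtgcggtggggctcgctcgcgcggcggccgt
Txndc5: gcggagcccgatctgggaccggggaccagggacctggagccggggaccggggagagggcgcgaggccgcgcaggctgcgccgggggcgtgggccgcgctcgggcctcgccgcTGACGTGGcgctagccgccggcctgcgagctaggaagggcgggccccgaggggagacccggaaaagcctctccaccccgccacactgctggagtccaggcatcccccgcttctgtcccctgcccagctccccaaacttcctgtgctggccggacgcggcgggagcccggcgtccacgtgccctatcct

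Windows were at hand for 44 of the 51 members, all but Sec61a1, Ssr2, Kdelr2, Sec11c, Ostc, Lman1 and Spcs3. The ERSE was found in 2 of the 44 (4.55%), Pdia6 and Canx, and in 37 of 27025 genes with a window (0.137%). A second form, ERSE-II, which is ATTGG, 1 base and CCACG, was found in 0 of the 44 and in 12 of all genes (0.0444%). The UPRE core was found in 5 members (11.4%), namely Txndc5, Txndc11, Sec24d, Kdelr3 and Sec23a, and in 193 of all genes (0.714%). In Sec23a it lies after the start. Of 8 ATF6-induced chaperones with a window, 5 held the ERSE: Hspa5, Hsp90b1, Calr, Creld2 and Dnajc3. The log2 fold change was -0.39 for Pdia6 and -0.075 for Canx, and the median was -0.071 over the 42 members with a window but no ERSE. Members with a UPRE core had a median of -0.031 and those without one -0.074. A match is a string of letters, not a measured binding site.

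Among the folding enzymes, Pdia6 (chromosome 12, 17266545 to 17284770, GRCm38), a disulfide isomerase that also tempers stress sensors of the ER, was at 62.0 and 69.1 FPKM untreated and 47.3 and 52.3 with MBP, from 5657, 6100, 4244 and 5078 reads. Both MBP values lay under both untreated values by more than replicates lay apart. Its log2 fold change of -0.39 (SE 0.0825, 95% interval -0.60 to -0.18) did not pass limma's test (adjusted p = 0.457). The value was -0.36 with GC content and length corrected for, and -0.31 without control 2.

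The call on Pdia6 depended on the test. In limma-voom on reads recovered from the FPKM values its log2 fold change was -0.40 with an adjusted p of 0.0348, which passes. It was the only member among the 18 genes (0.124% of 14518) that limma-voom called, and 6 of the 18 were ATF6-induced chaperones, described further on. On log2(FPKM + 1), limma called Pdia6 in none of the alternatives.

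Pdia3 (chromosome 2, 121413775 to 121438687), the isomerase that calnexin and calreticulin bring to glycoproteins, was at 187.1 and 194.2 FPKM untreated and 153.3 and 163.8 with MBP. Again both MBP values lay lower, with a log2 fold change of -0.27 (SE 0.0657, -0.43 to -0.10, limma adjusted p = 0.496). P4hb (chromosome 11, 120560298 to 120573253), the founding isomerase and a subunit of collagen prolyl 4-hydroxylase, was at 109.8 and 126.1 FPKM untreated and 98.4 and 104.9 with MBP, a difference of -0.21 on the log2 scale. For P4hb the untreated values lay about as far apart as the group means, and its interval ran from -0.43 to 0.012.

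The remaining folding enzymes differed less, or less evenly. The prolyl isomerase Ppib, cyclophilin B, was at 31.3 and 33.7 against 30.0 and 28.3 FPKM (log2 fold change -0.15). Fkbp2, a prolyl isomerase of another family, was at 57.8 and 52.2 against 51.9 and 41.0 FPKM (-0.25), so the groups were separated narrowly and MBP 2 was the low library. The value of Fkbp2, the most GC-rich member, was -0.12 with GC content and length corrected for and -0.079 without MBP 2. The low-level isomerase Pdia5 was at 3.88 and 3.43 against 3.30 and 3.07 FPKM (-0.15), and Txndc5, an isomerase with several thioredoxin domains, at 35.1 and 39.1 against 34.4 and 34.8 FPKM (-0.094). Txndc11, known for its part in thyroid oxidase maturation, was at 3.45 and 4.10 against 3.37 and 3.67 FPKM (-0.076) and was the 1 folding enzyme whose groups overlapped. These differences moved with control 2, in both directions. Without it Txndc5 stood at -0.018, Txndc11 at 0.022, P4hb at -0.11 and Ppib at -0.10. Fkbp2 and Pdia5 lay further from 0 without it, at -0.32 and -0.22. With GC content and length corrected for, Pdia5 stood at -0.080 and Txndc5 at -0.047, and Pdia5 was also at -0.080 without control 1.

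**Figure D2:**
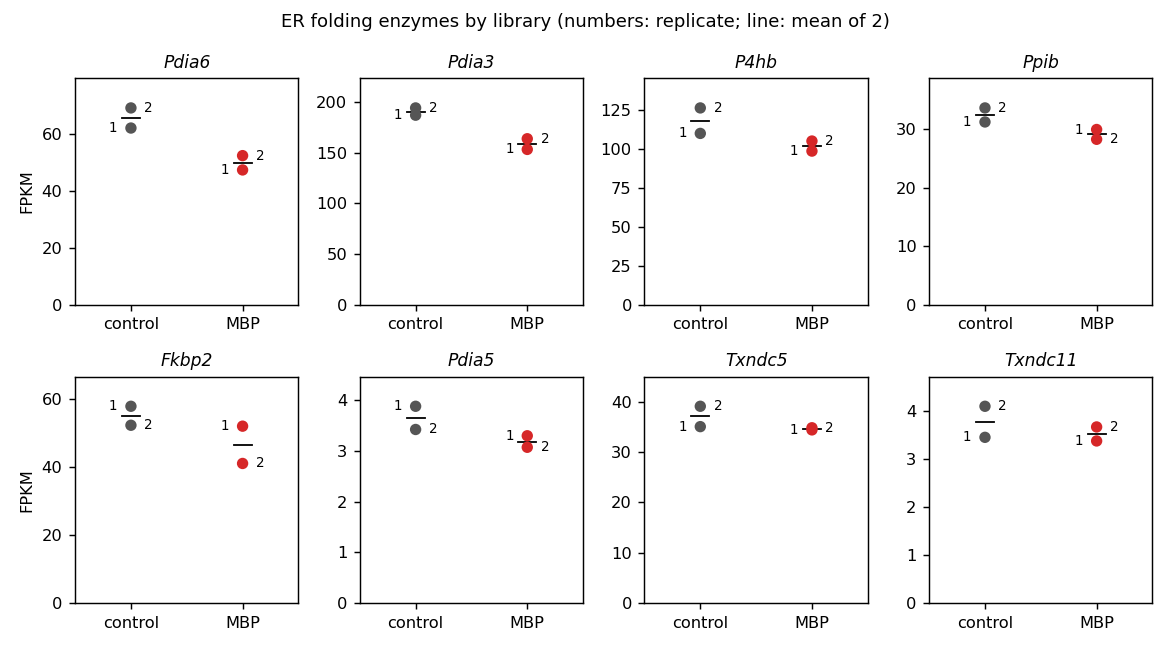
FPKM of the 8 folding enzymes in each library (grey control, red MBP; the number is the replicate and the short line the mean of 2), on axes that start at 0. In 7 panels both MBP values lie under both control values; in Txndc11 they overlap.

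Taking single libraries, the folding enzymes stood lower with MBP in each pairing. Against control 1 their median log2 difference was -0.15 for MBP 1 and -0.16 for MBP 2, with 8 and 7 of 8 lower. Against control 2 it was -0.20 and -0.24, with 8 of 8 lower in both. For the other 43 members the medians were -0.0090 and 0.029 against control 1, with 23 and 20 of 43 lower, and -0.14 and -0.11 against control 2, with 34 of 43 lower in both. Most folding enzymes thus lay lower against either control, whereas the other members lay on both sides of control 1 and mostly under control 2. Over all genes tested the medians for MBP 1 and MBP 2 were -0.010 and 0.0021 against control 1, and -0.013 and 0.0015 against control 2. The share of all genes that was lower in each pairing was not computed. The pairings share libraries and are not independent.

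**Figure D3:**
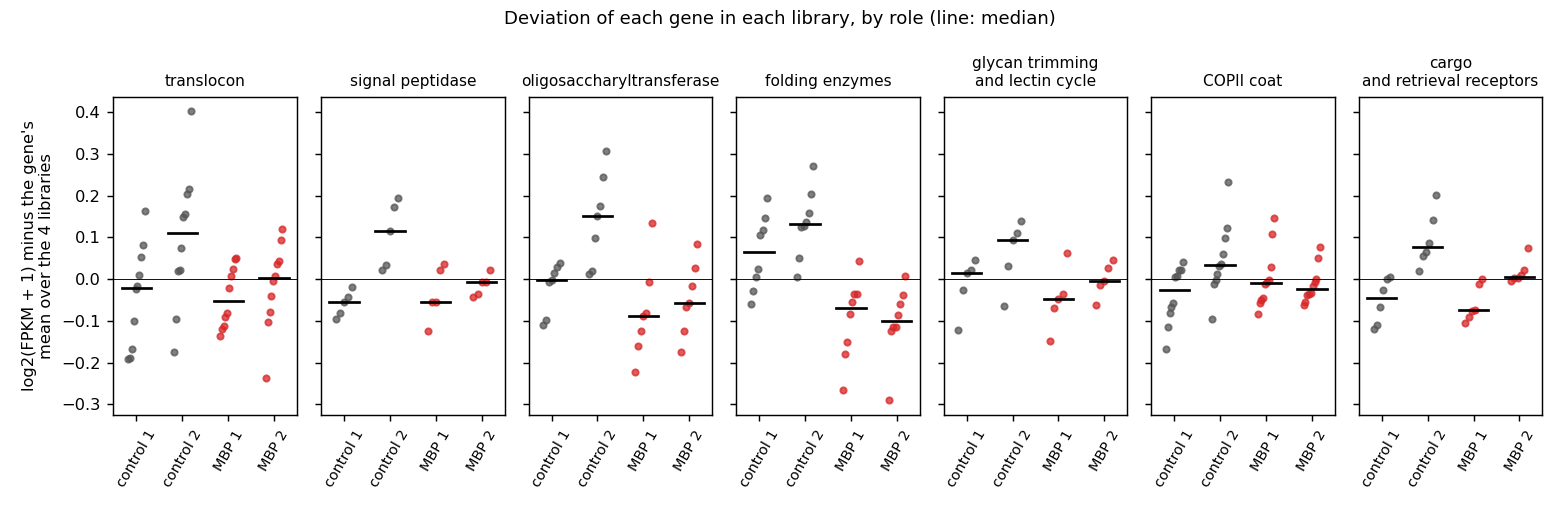
Deviation of log2(FPKM + 1) from the gene's mean over the 4 libraries, for each gene (points) in each library, with 1 panel per role and the median as a line; grey is control and red MBP. In all 7 panels control 2 has the highest median; among folding enzymes control 1 also lies above 0 and both MBP libraries lie under it.

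Oligosaccharyltransferase, which attaches the sugar chain, had a median log2 fold change of -0.14, and the 4 of 7 genes without overlap all had lower values with MBP (against 23.5% of all genes). Rpn1 (chromosome 6, 88084482 to 88105304), ribophorin I, was at 45.1 and 52.2 FPKM untreated and 39.2 and 40.2 with MBP, a difference of -0.28 on the log2 scale (SE 0.0822, limma adjusted p = 0.503). Rpn2, ribophorin II, was at 50.02 and 56.0 against 45.3 and 47.2 FPKM (-0.19), and Ddost, the OST48 subunit, at 90.4 and 100.9 against 85.4 and 87.3 FPKM (-0.14). In these 3 genes control 2 was the highest library, and their log2 fold changes without it were -0.18, -0.11 and -0.066. Ddost stood at -0.064 with GC content and length corrected for.

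The catalytic subunits stood on opposite sides of 0. Stt3a, which acts at the translocon as chains enter, was at 39.6 and 43.0 FPKM untreated and 42.2 and 45.0 with MBP (log2 fold change 0.078, but -0.013 with GC content and length corrected for). Stt3b, which also acts after translocation, was at 48.5 and 52.0 against 45.8 and 48.0 FPKM (-0.10, and -0.10 corrected). The 2 genes lay closer together after the correction, on the same side of 0, and their transcripts differ in GC content (40.5% and 49.0%). Within each library, Stt3a made up 45.0% and 45.3% untreated and 48.0% and 48.4% with MBP of the summed FPKM of both, a difference of 3.07 percentage points (exact two-sided permutation p = 0.333, the smallest that 2 against 2 libraries allow). The groups did not overlap in this share, and with each library left out the difference ran from 2.85 to 3.30 points. Shares are of FPKM without the GC and length correction. Ostc, a subunit of the Stt3a form, was at 11.6 and 15.8 against 10.6 and 12.8 FPKM (-0.20), and Dad1, a small subunit, at 15.5 and 15.3 against 16.8 and 13.3 FPKM (-0.040). In both the groups overlapped.

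The translocon had a median log2 fold change of -0.064, with members on both sides of 0. Sec61b (chromosome 4, 47474658 to 47483242), a small subunit of the channel, was at 16.5 and 16.4 FPKM untreated and 13.8 and 12.2 with MBP, from 510, 491, 419 and 403 reads. Its log2 fold change was -0.32 (SE 0.0716, limma adjusted p = 0.486), -0.32 without control 2, and -0.21 with GC content and length corrected for. Sec61a1, which forms the channel, was at 26.2 and 29.5 against 24.8 and 25.8 FPKM (-0.13, -0.049 without control 2 and -0.080 corrected). Sec61g, the third subunit, was at 4.60 and 7.44 against 4.81 and 5.04 FPKM. Control 2 stood far above the other 3 libraries there, and the log2 fold change of -0.21 became 0.082 without it.

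The subunits of the translocon-associated protein complex (TRAP), which helps some signal sequences into the channel, did not share a direction. Ssr3 (chromosome 3, 65379655 to 65392623) was at 158.8 and 181.1 FPKM untreated and 181.6 and 194.1 with MBP. It had the most positive log2 fold change of the 51 members, 0.15 (interval -0.077 to 0.37, limma adjusted p = 0.595), although MBP 1 and control 2 were nearly equal. The value was 0.24 without control 2 and 0.089 with GC content and length corrected for. Ssr2 was at 35.3 and 35.9 against 33.5 and 31.6 FPKM (-0.13, and -0.028 corrected). Ssr4 and Ssr1 stood at -0.10 and 0.0034, and their groups overlapped.

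Sec63 and Sec62, which help chains that enter after translation, stood at 0.086 and 0.093 on the log2 scale, with Sec63 at 18.6 and 17.2 against 19.1 and 18.9 FPKM and so narrowly higher with MBP without overlap. With GC content and length corrected for, Sec63 stood at 0.018. Serp1, a small stress-associated partner of Sec61, was at 28.4 and 37.9 against 29.9 and 34.8 FPKM (-0.024). Its untreated libraries differed by 0.41 on the log2 scale, far more than the groups did.

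Signal peptidase had a median log2 fold change of -0.060, and the groups overlapped in 5 of 5 genes (against 6851 of 12403 genes tested). Its catalytic subunit Sec11c was at 9.36 and 11.03 against 8.80 and 9.62 FPKM (-0.13, and -0.022 without control 2). The other, Sec11a, was at 6.60 and 7.16 against 7.25 and 7.16 FPKM (0.058). Spcs1, an accessory subunit, was at 36.3 and 44.6 against 37.4 and 37.8 FPKM (-0.10), and Spcs3 and Spcs2, the other two subunits, stood at -0.060 and -0.016. Control 2 was above control 1 in 5 of 5 of these genes (against 6134 of 12403 genes tested).

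In the glycan cycle, Mogs, glucosidase I, was at 5.79 and 6.37 against 5.04 and 5.62 FPKM (log2 fold change -0.16, and -0.067 with GC content and length corrected for). Prkcsh, the beta subunit of glucosidase II, was at 33.3 and 35.3 against 31.9 and 31.6 FPKM (-0.11), whereas its partner Ganab, the catalytic alpha subunit, was at 86.1 and 101.2 against 91.4 and 96.8 FPKM (0.012). The values of Prkcsh and Mogs did not overlap between groups and those of Ganab did, but with GC content and length corrected for Prkcsh stood at -0.019, near Ganab at 0.032. Canx, calnexin, the membrane lectin that holds unfolded glycoproteins, was at 144.1 and 142.6 against 132.9 and 139.1 FPKM (-0.075, and -0.13 corrected). Uggt1, which puts a glucose back on misfolded glycoproteins, was the 1 gene of the group with higher values without overlap, at 15.8 and 15.3 against 16.8 and 16.4 FPKM (0.090, interval -0.049 to 0.23, and 0.054 corrected).

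The COPII coat had the median log2 fold change nearest 0 of the 7 groups, -0.032 over 10 genes with a range of -0.12 to 0.11. It had 0 genes at an unadjusted p under 0.05 in limma (all genes tested: 5.87% lower and 3.81% higher). Signal peptidase, the glycan cycle and the receptors also had 0. In the outer cage, Sec13 was at 20.9 and 22.3 against 20.1 and 20.003 FPKM (-0.10) and Sec31a at 31.0 and 30.8 against 29.9 and 28.8 FPKM (-0.072), both lower with MBP without overlap. With GC content and length corrected for they stood at -0.061 and -0.044. Sec24a, 1 of 4 cargo-binding inner subunits, was at 7.95 and 8.30 against 8.58 and 8.71 FPKM (0.080, and 0.0084 with GC content and length corrected for). Sec24b, the most abundant of the 4 per length, was at 37.4 and 34.4 against 39.8 and 36.0 FPKM (0.073), Sec24c stood at -0.045 and Sec24d at -0.019. The GTPase genes that start a bud stood at -0.12 (Sar1a) and 0.11 (Sar1b), and Sec23a and Sec23b, which activate GTP hydrolysis by Sar1, at 0.070 and -0.064. Sec24a and Sar1b lie head to head on chromosome 11, with 52 bases between the annotated genes.

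Within-library shares of FPKM showed small shifts between COPII and signal peptidase paralogues. Sec23a made up 52.3% and 50.7% untreated and 53.7% and 54.3% with MBP of the Sec23 sum, a difference of 2.49 points. Sar1a made up 48.8% and 51.0% untreated and 43.8% and 48.0% with MBP of the Sar1 sum, and Sec11a 41.4% and 39.4% untreated and 45.2% and 42.7% with MBP of the Sec11 sum. In each of these the groups did not overlap, and the exact two-sided permutation p was 0.333, the smallest possible, so no share of the 6 families tested could pass a threshold. Sec24b made up 38.8% to 42.8% of the Sec24 sum over the 4 libraries, Sec24c 27.7% to 30.7%, Sec24d 20.2% to 21.1% and Sec24a 8.71% to 9.69%, so the order of the 4 was the same in every library.

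**Figure D4:**
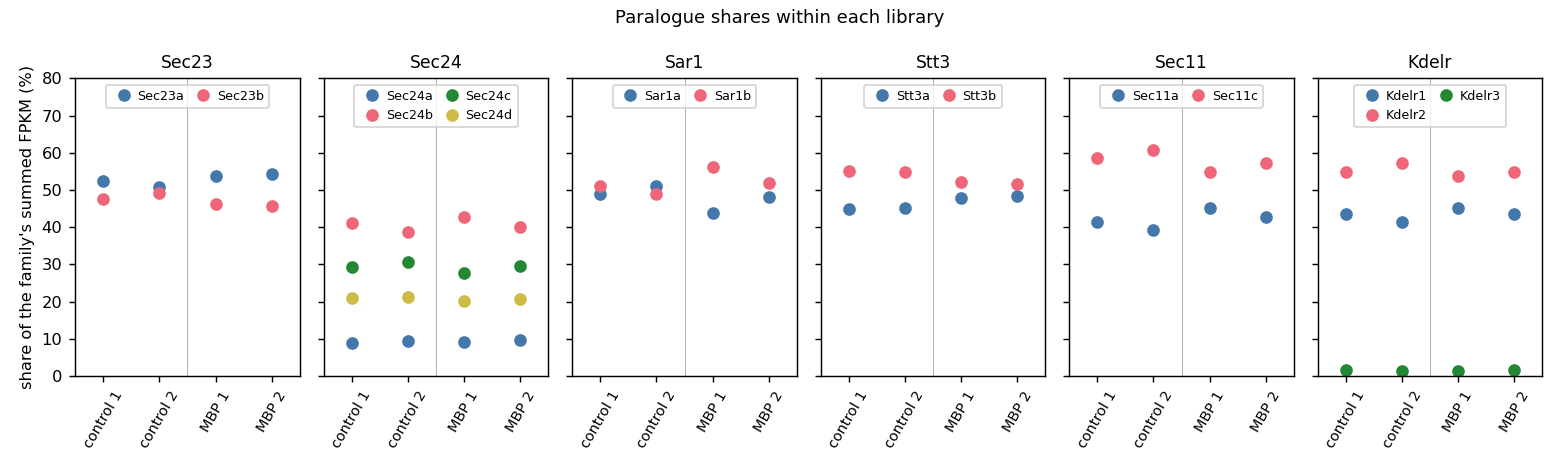
Share of each paralogue in its family's summed FPKM (percent) in each library of each group. Stt3a takes 45.0% and 45.3% in the controls and 48.0% and 48.4% with MBP; the order of the 4 Sec24 genes is the same in all libraries.

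The receptors that sort cargo and retrieve ER proteins had a median log2 fold change of -0.051. Lman2, a lectin of the early secretory pathway, was at 22.1 and 23.1 against 20.9 and 22.1 FPKM (-0.071, and -0.042 corrected), with almost no gap between the groups. Lman1 and Mcfd2, which together carry clotting factors out of the ER in humans, stood at -0.018 and -0.074, with Mcfd2 at 14.5 and 16.9 against 14.4 and 15.3 FPKM. Among the KDEL receptors, Kdelr2 was at 50.4 and 63.2 against 51.5 and 55.2 FPKM (-0.081, and 0.080 without control 2). Kdelr1 stood at 0.023. Kdelr3 was the lowest of the 3 at 1.34 and 1.47 against 1.21 and 1.501 FPKM, 1.26% to 1.49% of the family, and its log2 fold change was -0.031.

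Levels per length differed widely within complexes. Averaged over the 4 libraries, Ssr3 had 178.9 FPKM, beside 34.1 for Ssr2, 21.2 for Ssr4 and 16.4 for Ssr1 of the same complex. In the channel Sec61a1 had 26.6, Sec61b 14.7 and Sec61g 5.47 FPKM. In oligosaccharyltransferase Ddost had 91.0, Rpn2 49.6, Stt3b 48.6, Rpn1 44.2, Stt3a 42.5, Dad1 15.2 and Ostc 12.7 FPKM. These values divide reads by the merged length of all annotated exons, 10431 bases for Ssr1 and 4172 for Ssr3, so they also depend on the annotation.

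Neighbouring pathways were also mixed, with 0 genes passing limma's test on log2(FPKM + 1). For the signal recognition particle and its receptor the median log2 fold change was -0.047 over 8 tested genes, 6 negative, with Srp14 at -0.19 and Srp68 at -0.094. For the ER membrane complex and other insertion factors it was -0.062 over 18, with 14 negative, but the 2 lowest unadjusted p belonged to higher values, Emc2 at 0.20 and Sec61a2, a paralogue of Sec61a1, at 0.17. Further oligosaccharyltransferase subunits had -0.12 over 5, with Tusc3 and Tmem258 at -0.14 and -0.14. Enzymes that build the sugar chain before its transfer had 0.019 over 23, with 13 positive, Alg12 at 0.18 and Alg13 at 0.18.

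Further thiol oxidoreductases had a median of 0.042 over 14, with 6 negative, Pdia4, which is also among the chaperones described next, at -0.34 and Erp29 at -0.19. The other 8 were positive. Without overlap, 3 of the 14 had higher values with MBP (against 21.3% of all genes) and 4 lower ones (against 23.5%). COPII assembly factors and adaptors had -0.055 over 19, with 13 negative, Tmed9 at -0.21 and Ctage5 at 0.17. The COPI coat, which runs the return route, had -0.054 over 11, with 8 negative, Cope at -0.18 and Copg1 at -0.13. At an unadjusted p under 0.05 in limma these 7 lists, of 5 to 23 tested genes, held from 0 to 2 lower and 0 to 2 higher genes each. Over all genes tested the shares were 5.87% lower and 3.81% higher. Limma-voom called 1 gene in them, Pdia4 (adjusted p = 0.0466).

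These medians also moved with single libraries. With each library left out in turn, the median ran from -0.12 to 0.0034 for the insertion factors and from -0.10 to 0.0011 for COPII assembly, the higher value in both being the one without control 2. It ran from -0.011 to 0.086 for the sugar chain enzymes and from -0.046 to 0.094 for the thiol oxidoreductases, the lower value in both being the one without control 1. Without control 2, 8 of 18 insertion factors and 3 of 23 sugar chain enzymes were negative. The ranges were -0.10 to -0.028 for the signal recognition particle, -0.22 to -0.060 for the further oligosaccharyltransferase subunits and -0.11 to -0.037 for the COPI coat.

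The ER chaperones that ATF6 induces are set beside the members, and their lower values with MBP were known when the members were chosen. All 10 had groups without overlap and lower values with MBP (against 23.5% of all genes) and an unadjusted p under 0.05 in limma (against 5.87%). On log2(FPKM + 1) 0 passed after adjustment, whereas limma-voom called 6 of the 10, Creld2, Manf, Sdf2l1, Hyou1, Hspa5 and Pdia4, with adjusted p from 0.0182 to 0.0466. The median log2 fold change was -0.34, with Sdf2l1 at -0.62 and Creld2 at -0.53. Without control 2 their median was -0.31. The same values were -0.18 and -0.17 for the folding enzymes, and -0.064 and 0.012 for the other 43 members. The difference between these groups was not tested.

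**Figure D5:**
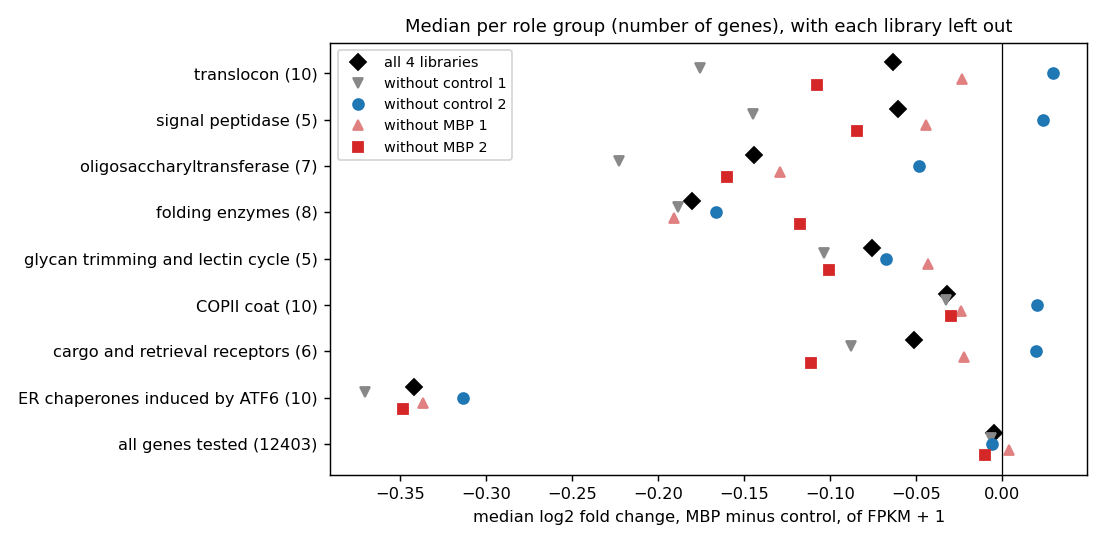
Median log2 fold change of FPKM + 1, MBP minus control, for each role group, the ATF6-induced chaperones and all genes tested (number of genes in brackets), with all 4 libraries and with each library left out. Without control 2 the medians of the translocon, signal peptidase, COPII coat and receptors lie above 0, that of the folding enzymes at -0.17 and that of the chaperones at -0.31.

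Fold changes moved with the GC content of the transcript, across members as across the table. Between the 2 measures Spearman's rho was -0.52 over the 51 members and -0.44 over 12389 genes, given as a description since genes share the 4 libraries. The members' median GC content was 49.0%, the same as that of all genes, and the correction for GC content and length left their median log2 fold change at -0.061. By role the corrected medians were -0.13 for signal peptidase, -0.12 for folding enzymes, -0.10 for oligosaccharyltransferase and -0.067 for the translocon, so the folding enzymes no longer had the lowest. They were -0.019 for the glycan cycle, -0.012 for the COPII coat and -0.042 for the receptors.

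Of the 51 members 22 overlap another gene of the table, and for 9 of them that gene had a mean of at least 1 FPKM, namely Sec24a, Sec24c, Kdelr3 (with Ddx17), Txndc11, Stt3b (with a processed pseudogene), Spcs1, Sec11a, Ssr2 and Serp1 (with Eif2a). That gene lies on the same strand for Sec24a, Stt3b and Sec11a and on the opposite strand for the others. Whole gene spans were compared, introns included, and these overlaps ran from 33 bases (Kdelr3) to 7617 (Sec24c). Libraries were directional, but whether counting used strand is not stated, so the values of these 9 members are uncertain.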

How the data were processed

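Ribosomal RNA was removed from total RNA and directional libraries were made, per the labels' protocols. The tools named in the submitters' processing notes are bcl2fastq and HISAT2, with genome GRCm38. No source names the counting program, annotation or strand setting. The authors deposited FPKM for 24169 genes, and columns carry sample titles. Replicate numbers follow accession order and pair nothing. In 24 rows a symbol turned into a date was restored from its gene ID.

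FPKM times the merged exon length (GENCODE mouse release 21) came out as multiples of a fixed step in each library, the worth of 1 read. The depths given above were inferred from that step. Of values under 1000 reads in single-exon genes (6059), at least 99.95% were whole within 0.05, and 93.8% to 94.0% over all genes. Whole reads came out for 43 of 51 members, and reads of the others were rounded. Reads are no molecule counts.

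The 12403 genes with at least 1 FPKM in at least 2 libraries were tested two-sided as log2(FPKM + 1) by limma 3.58.1 in R 4.3.3 (eBayes, trend), adjusted over all of them by Benjamini-Hochberg (threshold 0.05). This scale makes low genes' changes look smaller. GC content and length were corrected by loess (span 0.5) per library. Limma-voom took recovered reads where their mean was at least 10.

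Members, role groups and lists were chosen with earlier results of these data known. All libraries' values are given for the 3 members of each role group with the lowest unadjusted p and for the one with the highest mean FPKM, and for some members named after their values were seen. From each related list the 2 genes of lowest unadjusted p are named. Copies elsewhere in the genome that could share reads were not searched. Alternatives were a pseudocount of 0.1, TPM, quantile and median-of-ratios scaling, a filter of 5 FPKM or none, the correction above, protein-coding genes, no spread trend, limma-voom and each library left out.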

Additional observations from a re-analysis of the deposited data

How the results depend on the processing

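No paired analysis was possible because the labels give the groups fewer than 2 shared replicate numbers. The count of members called was 0 in each alternative except limma-voom on recovered reads, which called 1 member (Pdia6) among 18 genes. Limma-voom placed 8 members lower at an unadjusted p under 0.05, where the main test had 5. The share of all genes that limma-voom placed lower at that threshold was not computed. Quantile normalization placed 1 member higher, Ssr3, and gave medians of -0.063 for oligosaccharyltransferase, -0.14 for folding enzymes and -0.022 for the glycan cycle. A filter of 5 FPKM left 6 folding enzymes with a median of -0.23. The GC and length correction gave -0.12 for folding enzymes and -0.019 for the glycan cycle. The sign turned under TPM for Sec24d (0.0022), Lman1 (0.0039) and Spcs2 (0.0055), and under the correction for Kdelr3 (0.032), Stt3a (-0.013) and Ssr1 (-0.075). The cause was not tested.

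With each library left out in turn, members lower at an unadjusted p under 0.05 ran from 3 to 19, members higher from 0 to 1, and negative members from 26 to 42. Over all genes tested, negative genes ran from 6053 to 6571 of 12403. The share of all genes lower or higher at that threshold was not computed for these fits. Whether the members' counts exceed that share was therefore not tested. Medians ran from -0.15 to -0.0083 for all members, -0.18 to 0.030 for the translocon, -0.14 to 0.024 for signal peptidase, -0.22 to -0.049 for oligosaccharyltransferase, -0.19 to -0.12 for folding enzymes, -0.033 to 0.020 for the COPII coat and -0.11 to 0.020 for the receptors. The change in the share of Kdelr3 ran from -0.131 to 0.0994 points. The log2 fold change of 19 members changed sign, most of them without control 2, with these ranges: Dad1 -0.20 to 0.12, Ganab -0.10 to 0.13, Kdelr1 -0.074 to 0.12, Kdelr2 -0.24 to 0.080, Kdelr3 -0.12 to 0.058, Mcfd2 -0.18 to 0.030, Ostc -0.41 to 0.012, Sar1a -0.29 to 0.057, Sar1b -0.0068 to 0.22, Sec23b -0.15 to 0.026, Sec61g -0.51 to 0.082, Sec62 -0.036 to 0.22, Serp1 -0.23 to 0.18, Spcs1 -0.24 to 0.047, Spcs2 -0.044 to 0.013, Spcs3 -0.14 to 0.024, Ssr1 -0.018 to 0.025, Ssr4 -0.25 to 0.047, Txndc11 -0.17 to 0.022. In these fits a lone library is assumed to vary like the other group. With all libraries, unadjusted 95% intervals reached 0.127 to 0.504 to either side of the estimate. The adjusted test asks for more: Pdia6, at -0.39, lay beyond its interval's reach and was not called.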
